A study of Mus musculus with 24 samples.

Results

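Small RNA of mouse CD4+ T cells stimulated for 3 days with DMSO, the solvent used as control vehicle, was compared with that of CD4+ T cells stimulated for 3 days without it. The comparison used 6 of the 24 libraries of the study, 3 of DMSO cells and 3 of stimulated cells, and all 4408 features that remained after lines repeated in full were dropped from the deposited count files. All cells came from the spleen and lymph nodes of C57BL/6 mice. The stimulated cells had been cultured on plate-bound anti-CD3 at 2 µg/ml with anti-CD28 at 5 µg/ml; for the DMSO cells the labels give the stimulation and the vehicle, but no antibody dose and no DMSO dose. The remaining libraries were of resting cells (stimulated for 2 days, expanded for 1 day and rested for 2 days in medium with IL2), of cells stimulated with GW4869, an inhibitor of neutral sphingomyelinase, and of the extracellular vesicles (EVs) of the 4 kinds of culture, with 3 libraries in each of the 8 groups. The labels do not say whether replicates were separate animals or cultures, so p-values measure the spread between these libraries, which may be technical. The authors had tabulated the DMSO libraries with the GW4869 libraries, separately from the stimulated and resting ones. The vehicle and this separate tabulation therefore cannot be told apart in any result.

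Activated T cells carry miRNAs, short guides that pair with messenger RNAs mainly through their seed (bases 2 to 8), beside the small RNAs of splicing, ribosome assembly and translation. Under stress or activation, nucleases cut tRNAs near the anticodon into long 5′ and 3′ pieces and elsewhere into shorter ones. Small RNA sequencing also picks up pieces of longer RNAs, among them mitochondrial tRNAs, small nuclear RNAs (snRNAs) of the spliceosome and small nucleolar RNAs (snoRNAs), which guide chemical modification of ribosomal RNA. In these bulk samples, fewer cells of a type and less RNA per cell cannot be told apart.

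The mature miRNAs below, from RefSeq (GRCm38.p6), are those with the largest changes and their relatives by seed; the seed is in capitals. The precursors Mir449a (mature arm at chr13:113037549-113037570, plus strand) and Mir449c (chr13:113036008-113036028, plus strand) share their seed with Mir34a (chr4:150068473-150068494, plus strand). The pair Mir146 (miR-146a, chr11:43374435-43374456, minus strand) and Mir146b (chr19:46342790-46342811, plus strand) share a seed too, and miR-146b differs from miR-146a by G18A and U21C, counted from the 5′ end. Mir2137 (chrX:72992113-72992133, plus strand), Mir6240 (chr5:114851973-114851998, plus strand) and Mir5121 (chr7:45126925-45126945, minus strand) are the 3 miRNA loci with the lowest folds. Of the 254 miRNA features, 186 had a RefSeq entry.
miR-449a-5p: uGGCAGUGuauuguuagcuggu
miR-449c-5p: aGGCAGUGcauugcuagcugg
miR-34a-5p: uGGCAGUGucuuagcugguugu
miR-219a-5p: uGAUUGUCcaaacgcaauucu
miR-455-5p: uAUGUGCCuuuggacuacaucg
miR-20a-5p: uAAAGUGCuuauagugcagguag
miR-18b-5p: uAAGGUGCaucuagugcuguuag
miR-92a-3p: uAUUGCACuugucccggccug
miR-19a-3p: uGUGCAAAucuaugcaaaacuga
miR-146a-5p: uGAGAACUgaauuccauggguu
miR-146b-5p: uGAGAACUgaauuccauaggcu
miR-2137: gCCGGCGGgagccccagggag
miR-6240: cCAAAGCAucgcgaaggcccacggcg
miR-5121: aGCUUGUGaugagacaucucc

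The longer RNAs below, from GENCODE M21 (GRCm38), are examples from outside the miRNAs. In Snord33 (chr7:45126864-45126947, minus strand) the capitals mark bases 3 to 23, which spell miR-5121 in full. Capitals mark the anticodon letters in the mitochondrial tRNAs mt-Te (glutamate, chrM:14071-14139, minus strand) and mt-Ti (isoleucine, chrM:3706-3774, plus strand).
Snord33: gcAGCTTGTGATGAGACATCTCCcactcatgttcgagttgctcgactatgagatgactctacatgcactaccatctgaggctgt
mt-Te: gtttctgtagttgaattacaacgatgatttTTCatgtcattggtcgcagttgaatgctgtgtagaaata
mt-Ti: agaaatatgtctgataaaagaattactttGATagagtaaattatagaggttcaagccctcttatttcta

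The 6 libraries held from 1551155 to 2007709 counts in DMSO cells and from 2254908 to 2742635 in stimulated cells. The most abundant features of both groups were Mir142 with its overlapping entries Mir142b and Mir142hg, which share its reads. Mir142, a miRNA of blood cells, stood at 102336, 96175 and 72856 counts per 1000000 (CPM) in DMSO cells and 74314, 90665 and 66145 in stimulated cells (log2 fold 0.23 ± 0.26, edgeR adjusted p = 0.542). None of the 7 T cell and lymphocyte marker miRNAs passed the test. They included Mir155, which is induced by activation (13633, 12917 and 12223 CPM with DMSO against 11445, 12718 and 11330), and Mir150, which is abundant in resting lymphocytes. Markers of other cell types were low and did not pass the test either: the erythroid Mir451a stood between 42.0 and 83.5 CPM, and the 2 epithelial, 2 myeloid, 2 platelet and endothelial and 1 neural markers summed to between 73.3 and 317 CPM per list. The 2 platelet and endothelial entries had equal counts in these libraries, so their sums, up to the 317 CPM, hold the same counts 2 times. The liver, muscle and stromal markers are not analysed here.

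Of the 4408 features, 1279 (29.0%) passed an adjusted p under 0.05, 523 higher with DMSO (11.9%) and 756 lower (17.2%), in edgeR's quasi-likelihood test after Benjamini-Hochberg adjustment. The 3 libraries of one group all lay above the 3 of the other for 2073 features (47.0%), and the median log2 fold of all features was -0.01. The classes differed in their balance. Higher calls prevailed among nuclear tRNA fragments (163 higher and 59 lower of 780), mitochondrial tRNAs (9 and 0 of 10), snRNAs (15 and 3 of 57), snoRNAs (43 and 8 of 153) and miRNAs (43 and 5 of 254). Lower calls prevailed among long genes holding no listed small RNA (190 higher and 660 lower of 2832), whose counts are small pieces mapped inside them and not messenger RNA levels. The share of higher among all calls depended on the scaling: it was 40.9% with the TMM factors used here, 53.5% with RLE size factors, 30.6% with library totals and 61.9% when only the 12 DMSO and stimulated libraries were fitted, and the median fold over all features then shifted by 0.13, -0.15 and 0.21 in turn.

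**Figure D1:**
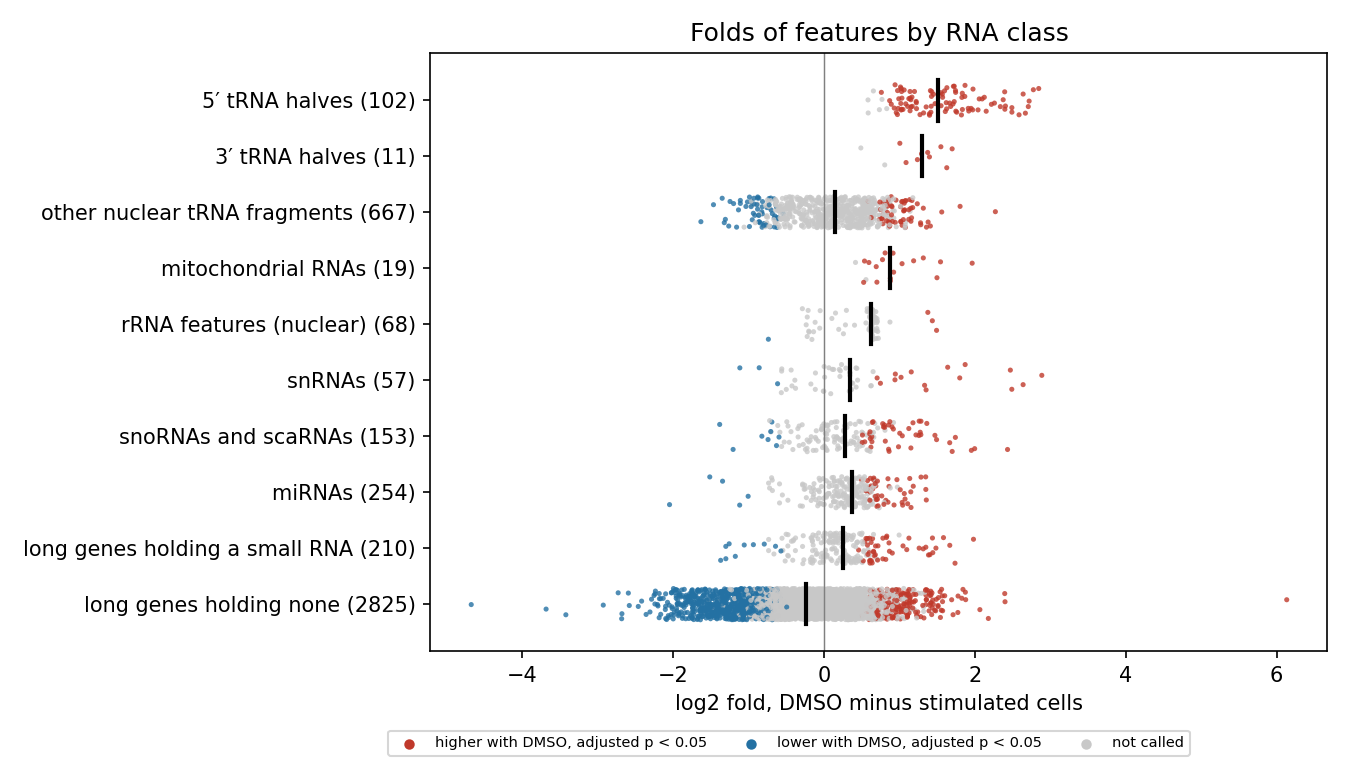
Log2 fold of DMSO against stimulated cells (x axis) for each feature (points) of each RNA class (rows, with the number of features); black bars are medians, and colours mark an adjusted p under 0.05 (edgeR). All 102 long 5′ tRNA fragments and all 19 mitochondrial RNAs lie above 0, and the long genes holding no small RNA lie on both sides with their median below 0.

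Long 5′ tRNA fragments, which the files call 5_half_up, were higher in DMSO cells almost throughout. Of 102 such features, named by tRNA locus, 96 were higher and 0 lower, with a median log2 fold of 1.51 against -0.01 over all features. They made up 0.624%, 0.692% and 0.720% of the counts of the 3 DMSO libraries and 0.198%, 0.291% and 0.263% of the stimulated ones, 0.679% ± 0.0493 against 0.2504% ± 0.0479 (SD, n = 3 each). The shares did not overlap; the exact permutation test over 3 against 3 libraries gave its smallest possible p, 0.1. The share was 0.710% in GW4869 cells and 0.282% in resting cells. Loci of one anticodon are near copies that can share reads, so the counts were also summed by anticodon: 16 of 17 anticodons were then higher and 0 lower, in a fit in which 28.5% of 3588 features were called, and their folds ran from 0.64 to 2.65 with a median of 1.59.

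The initiator methionine tRNA, which starts every protein, had the highest fold: its 5_half_up fragments, summed over 8 loci, stood at 297, 281 and 242 CPM in DMSO cells and 29.3, 51.3 and 50.1 in stimulated cells (log2 fold 2.65 ± 0.24 (SE), edgeR adjusted p = 3.94e-08). The lowest DMSO library was above the highest stimulated library by a wide margin. Glycine TCC fragments measured 482, 533 and 497 CPM against 72.4, 134 and 84.6 (2.38 ± 0.26, edgeR adjusted p = 3.08e-07). Lysine CTT fragments, among the most abundant, measured 2643, 2653 and 2307 CPM against 435, 712 and 496 (2.21 ± 0.21, edgeR adjusted p = 9.94e-08). Glycine GCC fragments were as abundant and rose less, with 2612, 3043 and 2842 CPM against 861, 1676 and 1245 (1.17 ± 0.29, edgeR adjusted p = 0.00305). Glutamate CTC fragments rose by 1.74 and aspartate GTC fragments by 1.02 on the same scale. Arginine CCG was the anticodon that did not pass the test, at 27.2, 28.5 and 14.99 CPM against 13.7, 22.6 and 10.1 (0.64 ± 0.47, edgeR adjusted p = 0.33), and its groups overlapped. For lysine CTT the GW4869 cells averaged 2145 CPM and the resting cells 1825, both nearer to the DMSO cells than to the stimulated cells on this scale. For initiator methionine the GW4869 and resting cells averaged 480 and 154 CPM. CPM of resting cells depend on the scaling: their TMM factors over all features were 0.565, 0.563 and 0.579, against 1.02, 0.892 and 1.09 in stimulated cells. By the shares of counts given above, all 5_half_up fragments together placed resting cells nearer to stimulated than to DMSO cells.

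**Figure D2:**
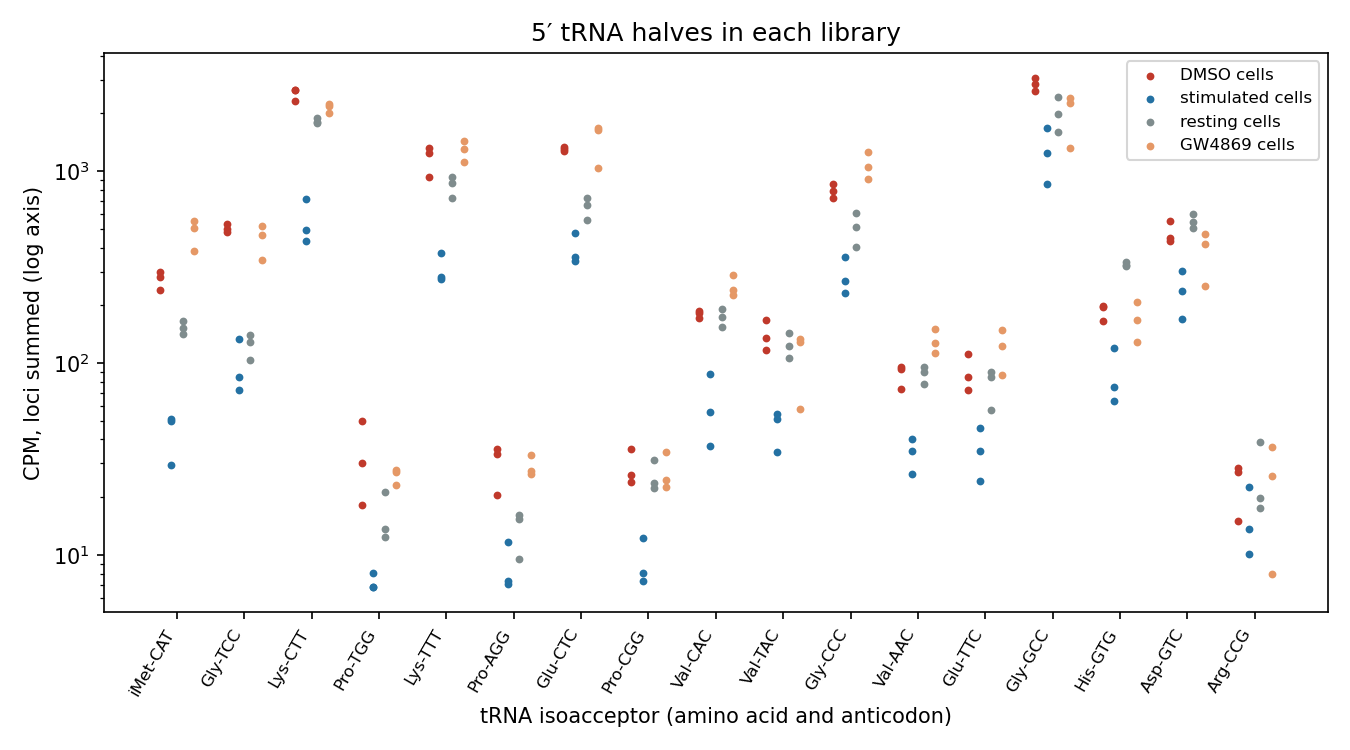
CPM (y axis, log) of 5_half_up tRNA fragments summed by anticodon (x axis); each point is 1 library of DMSO, stimulated, resting or GW4869 cells. The DMSO libraries lie above the stimulated libraries for every anticodon except arginine CCG.

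The other tRNA fragments gave a mixed picture. Some longer pieces of the 3′ side moved with the 5′ ones: 5 of 6 features called 3_half_up and 4 of 5 called 3_half_down were higher. These were scarce, with sums of 63.7 to 80.2 and 71.6 to 77.2 CPM per DMSO library, and near copies can share reads. Of the features called 3_Internal_half 0 of 5 passed, and of those called 5_Internal_half 0 of 2. Among the short 3′ pieces called 3FR_1, 10 of 207 were higher and 33 lower, with a median log2 fold of 0.01, and this balance turned with the scaling, to 24 higher and 21 lower with RLE size factors and to 27 and 4 in the fit of 12 libraries. The short 5′ pieces called 5FR_1 were split, with 13 higher and 15 lower of 172, and of those called 5FR_2, 27 of 109 were higher and 2 lower. Calls in either direction made up 20.8% of 3FR_1, 16.3% of 5FR_1 and 26.6% of 5FR_2 features. None of these pooled shares was above the 29.0% of all features, 11.9% higher and 17.2% lower. By direction, 5FR_2 features were more often higher and less often lower than all features, with 18 to 35 higher and 0 to 11 lower under the alternatives. Summed by anticodon and with a mean of at least 20 CPM, the strongest falls were in arginine TCT 3FR_1 (17.3, 8.97 and 14.1 CPM against 29.3, 27.4 and 32.4; log2 fold -1.14 ± 0.33, edgeR adjusted p = 0.00963), leucine CAA 5FR_1 (-0.97 ± 0.24), alanine CGC 3FR_1 (-0.93 ± 0.27) and glycine CCC 3FR_2 (-0.92 ± 0.24). So a single tRNA could move both ways: glycine CCC 5_half_up fragments stood at 787, 860 and 723 CPM against 231, 356 and 267 (1.48 ± 0.23, edgeR adjusted p = 3.59e-05). Leucine CAA precursor fragments, which still carry sequence outside the mature tRNA, also rose, with 71.8, 39.1 and 48.7 CPM against 8.80, 9.58 and 13.2 (2.33 ± 0.45, edgeR adjusted p = 0.000333).

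RNAs encoded by mitochondrial DNA were likewise mostly higher in DMSO cells. Of the 19 mitochondrial features 17 were higher and 0 lower, with a median log2 fold of 0.88. Of the 10 mitochondrial tRNAs, which serve translation inside the organelle, 9 were higher, and together they made up 0.338% ± 0.0165 of counts against 0.196% ± 0.0131 (SD, n = 3 each). The glutamate tRNA mt-Te rose most, from 24.2, 27.3 and 30.4 CPM in stimulated cells to 102, 117 and 101 with DMSO (1.97 ± 0.26, edgeR adjusted p = 3.28e-06). It was followed by mt-Ta (alanine, 1.55 ± 0.25) and mt-Tv (valine, 1.499 ± 0.19). The isoleucine tRNA mt-Ti, the most abundant of them, measured 676, 816 and 702 CPM against 455, 716 and 470 (0.42 ± 0.22, edgeR adjusted p = 0.151), and its groups overlapped. The large ribosomal RNA mt-Rnr2 measured 4034, 3917 and 4043 CPM against 2151, 2290 and 2393 (0.81 ± 0.15, edgeR adjusted p = 0.000253), without overlap. The small ribosomal RNA mt-Rnr1 rose by 0.53 ± 0.17 (edgeR adjusted p = 0.0214), a call lost with library totals (0.38, edgeR adjusted p = 0.156), without DMSO replicate 1 or 2 and without stimulated replicate 1. Of the 7 mitochondrial messenger RNAs 6 were higher, from 0.60 ± 0.22 for mt-Co1, a subunit of cytochrome oxidase, to 1.19 ± 0.22 for mt-Nd1, a subunit of complex I; mt-Co2 measured 82.8, 68.7 and 68.3 CPM against 42.0, 50.7 and 56.6 (0.56 ± 0.25, edgeR adjusted p = 0.0908). Resting cells had lower mitochondrial levels than either group, with a mean of 0.0349% of counts in mitochondrial tRNAs, and GW4869 cells had 0.300%.

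Among snRNAs, the RNA cores of the spliceosome, 15 of 57 features were higher and 3 lower, 31.6% called against 29.0% of all features. The U5 copies, which hold the exons in place during splicing, were 7 of the 57, recognised by the letters of a short loop, and near copies can share short reads. All 7 U5 copies were higher in DMSO cells, with folds from 1.35 to 2.89 and a median of 1.87, while the 57 snRNAs together had a median of 0.34. A large fold was not limited to U5: Gm25541, a snRNA with the letters of none of the families searched and picked after its values were seen, rose by 2.47 ± 0.36 from 5.70, 7.46 and 2.59 CPM in stimulated cells to 40.0, 27.8 and 17.9 with DMSO (edgeR adjusted p = 1.27e-05). Rnu5g stood at 799, 604 and 436 CPM against 71.6, 95.96 and 81.1 (2.89 ± 0.32, edgeR adjusted p = 3.35e-07). Gm25313 stood at 584, 448 and 337 CPM against 66.6, 73.6 and 79.2 (2.64 ± 0.28, edgeR adjusted p = 2.64e-07), and Gm22265 at 236, 186 and 119 CPM against 26.3, 35.3 and 34.8 (2.49 ± 0.31, edgeR adjusted p = 1.73e-06). In each of these the DMSO libraries spread more widely than the stimulated ones but stayed above them, and GW4869 cells averaged 555 CPM of Rnu5g and resting cells 114. The 7 U5 copies were higher under each of the 19 alternatives. Of the 24 U1 copies, found by the letters ATACTTACC, 0 were higher and 2 lower (median 0.31), with 0 to 10 higher and 0 to 5 lower under the alternatives. Of the 12 U2 copies (CGCTTCTCG) 4 were higher, and both U4 copies (GCGCAGTGG) were, by 1.16 and 1.34. Both counts depended on single libraries and on the scaling. The U2 copies higher numbered 1 without DMSO replicate 1 or stimulated replicate 1, 2 without DMSO replicate 2 or stimulated replicate 3, and 7 with RLE size factors. The U4 copies higher numbered 0 without DMSO replicate 1 and 1 without stimulated replicate 1 or 3.

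Other small RNAs of RNA processing were mixed. Rmrp, the RNA of the enzyme RNase MRP that cuts ribosomal RNA precursors, stood at 221.2, 221.995 and 218.2 CPM against 50.2, 56.7 and 51.1 (2.07 ± 0.23, edgeR adjusted p = 3.48e-07). Rpph1, the RNA of the related RNase P that trims tRNA precursors, measured 88.0, 81.2 and 69.0 CPM against 80.1, 72.6 and 95.1 (-0.06 ± 0.20, edgeR adjusted p = 0.863). The Y RNAs, which bind the Ro protein, both rose: Rny1 measured 871, 810 and 805 CPM against 413, 468 and 385 (0.97 ± 0.20, edgeR adjusted p = 0.000687), and Rny3 rose by 0.94 ± 0.22. The vault RNA Vaultrc5 measured 640, 540 and 342 CPM against 648, 873 and 684 (-0.53 ± 0.31, edgeR adjusted p = 0.205), and Rn7sk (misc_RNA), which restrains a transcription elongation factor, measured 54.4, 43.7 and 51.1 CPM against 50.6, 46.7 and 51.8.

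**Figure D3:**
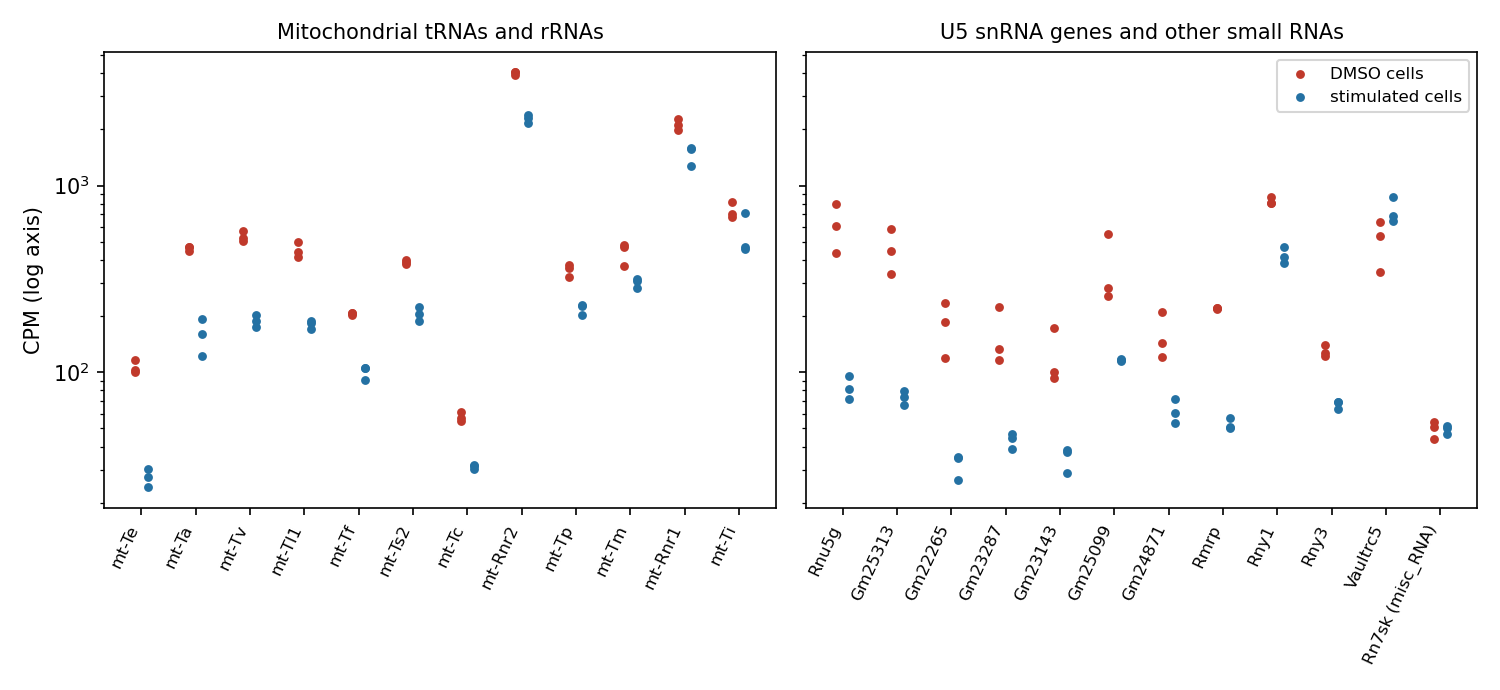
CPM (y axis, log) of mitochondrial RNAs, U5 snRNAs and other small RNAs (x axis); each point is 1 library of DMSO or stimulated cells. The 3 DMSO libraries of Rnu5g lie between 436 and 799 and the 3 stimulated libraries between 71.6 and 95.96.

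Of the 153 snoRNAs and small Cajal body RNAs, 43 were higher and 8 lower, with a median log2 fold of 0.28. The share called in either direction, 33.3%, was near the 29.0% of all features. By direction, higher calls were more frequent and lower calls less frequent than over all features (11.9% higher and 17.2% lower). The balance moved with the scaling and with single libraries: 29 were higher and 17 lower with library totals, 58 and 2 in the fit of 12 libraries, and 40 and 4 without DMSO replicate 3. Names of the box C/D type, which guide methylation of ribosomal RNA, gave 22 higher and 4 lower of 59 Snord features, and names of the box H/ACA type, which guide pseudouridylation, gave 0 higher and 1 lower of 18 Snora features; the difference between the types was not tested. The highest was the predicted snoRNA Gm22357, at 325, 325 and 209 CPM against 52.7, 51.7 and 54.4 (2.43 ± 0.27, edgeR adjusted p = 4.78e-07). Snord72 measured 70.1, 95.95 and 59.0 CPM against 17.4, 22.9 and 16.3 (2.00 ± 0.32, edgeR adjusted p = 3.96e-05), and the predicted Gm24134 and Gm23201 rose by 1.96 ± 0.28 and 1.74 ± 0.25. In these 4 the groups did not overlap. Lower were Snora33 (27.8, 27.3 and 21.9 CPM against 63.4, 52.7 and 61.4; -1.20 ± 0.29, edgeR adjusted p = 0.00276), Gm26448 (-0.82 ± 0.23, a call lost in the fit of 12 libraries) and Snord33. Gm22009 was also called lower (-1.38 ± 0.48), but its stimulated libraries were 19.2, 19.9 and 60.3 CPM, and without stimulated replicate 3 it stood at -0.58 (edgeR adjusted p = 0.426); the call was lost without DMSO replicate 2 or 3 too.

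Snord33 and Mir5121 describe overlapping sequence. Snord33, a box C/D snoRNA encoded in an intron of the ribosomal protein gene Rpl13a, fell from 504, 523 and 547 CPM in stimulated cells to 358, 295 and 288 with DMSO (-0.74 ± 0.20, edgeR adjusted p = 0.0062). Mir5121, whose mature sequence is bases 3 to 23 of Snord33 as printed above, fell further, from 467.06, 479 and 517 CPM to 195, 184 and 198 (-1.34 ± 0.22, edgeR adjusted p = 5.9e-05). Rpl13a, whose GENCODE transcripts also hold these letters, measured 858, 770 and 726 CPM against 801, 861 and 822 (-0.08 ± 0.16, edgeR adjusted p = 0.769). The counts thus do not tell the snoRNA from the miRNA, and how reads that fit both were assigned is not given in the sources used here.

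Of the 254 miRNA features, 43 were higher and 5 lower in DMSO cells, 18.9% called against 29.0% of all features, with a median log2 fold of 0.37. The groups did not overlap for any of the 48, but the calls rest on the same values. Of all 254, 105 were higher and 9 lower without overlap, where 47.0% of all 4408 features did not overlap. The number called higher ran from 18 to 87 over the 19 alternatives and depended on single libraries: it was 18 without stimulated replicate 1 and 21 without stimulated replicate 3, 21 without DMSO replicate 2 and 28 without DMSO replicate 1. The 2 highest with a seed in common were Mir449a, at 135, 123 and 112 CPM against 53.04, 50.7 and 40.7 (1.36 ± 0.20, edgeR adjusted p = 1.41e-05), and Mir449c, at 48.1, 38.6 and 35.1 CPM against 22.1, 14.9 and 16.3 (1.18 ± 0.28, edgeR adjusted p = 0.0025). Mir34a, a p53 target of the same seed (GGCAGUG), was far more abundant and missed the threshold, with 1873, 2415 and 1715 CPM against 1298, 1663 and 1186 (0.53 ± 0.21, edgeR adjusted p = 0.0601); it passed under 11 alternatives. Mir219a-1 and Mir219c, which lie on opposite strands of one place and share reads, stood at 305, 378 and 389 CPM against 143, 143 and 134 for the first (1.35 ± 0.23, edgeR adjusted p = 7.34e-05). Mir455 measured 51.0, 48.3 and 41.8 CPM against 24.2, 19.9 and 22.6 (1.08 ± 0.27, edgeR adjusted p = 0.00423), and Mir669c rose by 1.11 ± 0.26.

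The 5 lower miRNA features were Mir2137, Mir6240, Mir5121, Mir6236 and Mir146b. Mir2137 measured 31.3, 29.5 and 32.5 CPM in DMSO cells and 131, 127 and 127 in stimulated cells (-2.05 ± 0.29, edgeR adjusted p = 6.4e-06). Mir6240 measured 135, 136 and 119 CPM against 377, 346 and 390 (-1.51 ± 0.24, edgeR adjusted p = 3.17e-05), and Mir6236 fell by 1.12 ± 0.22. In resting cells these 3 stood lower still, at means of 9.34, 24.1 and 27.7 CPM. Their counts are of reads placed at each locus, and whether these reads were mature miRNAs or pieces of other RNAs was not tested. Mir146b, which restrains inflammatory signalling with its relative miR-146a, measured 28.4, 24.4 and 14.6 CPM against 40.2, 61.7 and 34.8 (-1.004 ± 0.32, edgeR adjusted p = 0.0195), a call lost in the fit of 12 libraries, without DMSO replicate 3 (-0.78, edgeR adjusted p = 0.105) and without stimulated replicate 2 (-0.73, edgeR adjusted p = 0.114). Mir146, the more abundant member of the same seed, measured 3549, 3547 and 3384 CPM against 2717, 3245 and 2579 (0.30 ± 0.21, edgeR adjusted p = 0.3).

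**Figure D4:**
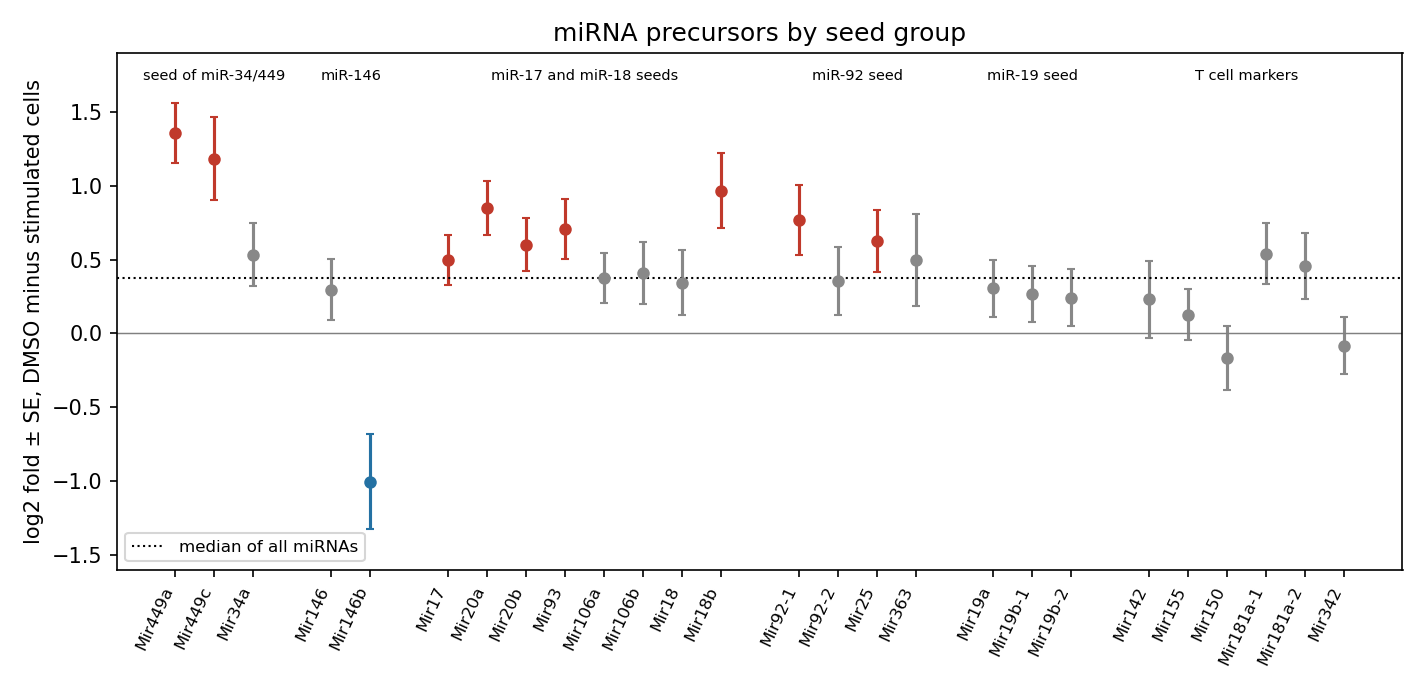
Log2 fold of DMSO against stimulated cells (y axis; points with SE bars) of miRNA precursors grouped by seed, with T cell markers at the right; coloured points passed the test and the dotted line is the median of all miRNAs. Mir449a stands at 1.36 and Mir146b at -1.004, while the 3 precursors with the miR-19 seed lie between 0.24 and 0.31.

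The miR-17-92 group and its paralogs hold miRNAs that favour T cell growth and survival, with 4 seeds among them. Of the 15 features 7 were higher and 0 lower, with a median of 0.50: 4 of 6 with the seed AAAGUGC, 1 of 2 with AAGGUGC, 2 of 4 with AUUGCAC and 0 of 3 with GUGCAAA; the difference between seeds was not tested. Mir20a rose from 5411, 5934 and 5484 CPM in stimulated cells to 8803, 10673 and 10850 (0.85 ± 0.18, edgeR adjusted p = 0.000923). Mir18b rose by 0.97 ± 0.26, and Mir92-1 by 0.77 ± 0.24, a call lost without stimulated replicate 1 or 3. Mir19a, which promotes T helper responses, measured 7390, 6879 and 7028 CPM against 5995, 5673 and 5560 (0.31 ± 0.19, edgeR adjusted p = 0.249). The host gene Mir17hg, which counts the reads of its miRNAs, rose by 0.54 ± 0.17 (edgeR adjusted p = 0.02), a call lost without DMSO replicate 2 or stimulated replicate 1. In the whole group the number higher was 3 without stimulated replicate 1 and 4 without DMSO replicate 2 or stimulated replicate 3.

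Single families were read against 29.0% called over all features, 11.9% higher and 17.2% lower. The let-7 family, which restrains growth genes, had 6 of 12 features higher and 0 lower (median 0.58), led by Mirlet7a-1 at 2148, 2342 and 2229 CPM against 1158, 1679 and 1035 (0.80 ± 0.23, edgeR adjusted p = 0.0109). The miR-30 family had 5 of 7 higher (median 0.58), led by Mir30a at 55.6, 52.8 and 62.3 CPM against 21.4, 40.3 and 22.2 (1.04 ± 0.34, edgeR adjusted p = 0.0243). Both counts rested on single libraries: no let-7 feature passed without stimulated replicate 1 or 3 and 1 or 2 passed without any one DMSO library, and 0 miR-30 features passed without stimulated replicate 1, 1 without stimulated replicate 3, 2 without DMSO replicate 2 or 3 and 3 without DMSO replicate 1. The miR-181 family, which tunes T cell receptor signalling, had 2 of 6 higher, Mir181b-1 (0.86 ± 0.25) and Mir181b-2 (0.82 ± 0.23). None passed in the miR-15/16 family (6 features), the miR-23/27/24 clusters (6), the miR-26 family (3), the miR-29 family (4), the miR-183 cluster (3) and the miR-221 cluster (2). Of the 15 activation-induced miRNAs 2 were higher and 1 lower (median 0.11), and of 12 miRNAs typical of naive or resting T cells 2 were higher, Mir101a (0.70 ± 0.24) and Mir101b (0.71 ± 0.24), each lost when single libraries were left out; these shares, 20% and 16.7% called, were not above that of all features. The Sfmbt2 cluster, a large group of similar genes named Mir297, Mir466, Mir467 and Mir669, had 11 of 60 higher and 0 lower (median 0.52), with 4 to 22 higher under the alternatives.

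Ribosomal RNA pieces went both ways. Rn18s-rs5, a locus that takes 18S ribosomal RNA reads, fell from 31146, 29664 and 30014 CPM in stimulated cells to 19026, 18998 and 16512 (-0.74 ± 0.17, edgeR adjusted p = 0.00159). Of the 56 annotated copies of 5S ribosomal RNA, 3 were higher and 0 lower (n-R5s33 by 1.49 ± 0.35, n-R5s185 by 1.44 ± 0.33 and n-R5s2 by 1.38 ± 0.34), with a median of 0.63. The groups did not overlap for 31 of the 56, all higher with DMSO, where 940 of all 4408 features (21.3%) were higher without overlap. Such copies share reads, and the count of higher rRNA features depended strongly on the fit. It went from 5 of 70 to 24 with RLE size factors and to 50 in the fit of the 12 DMSO and stimulated libraries. With only the 6 libraries compared it was 49, and with the 12 cell libraries 45. The median log2 fold of these features was 0.63 in the main fit, 0.62 with the 6 libraries and 0.65 with the 12 cell libraries. The 70 features include the mitochondrial mt-Rnr1 and mt-Rnr2, both higher in the main fit and described above.

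Pieces of long genes holding no listed small RNA took 12.5%, 12.5% and 13.8% of counts in DMSO cells and 20.1%, 16.5% and 21.1% in stimulated cells, and the groups did not overlap (exact permutation p = 0.1, the smallest possible). The 6 most abundant of these genes, picked for their level after the values were seen, took 2.96% against 5.83%. Gm42418 and AY036118, on opposite strands of one place on chromosome 17, had log2 folds of -0.91 ± 0.17 and -1.08 ± 0.17. Cdk8, a kinase gene of the Mediator complex, measured 5808, 5189 and 5450 CPM against 13074, 12001 and 12214 (-1.18 ± 0.17, edgeR adjusted p = 1.03e-05), and Cmss1 and Filip1l, which overlap with nearly equal counts, both fell by 0.99 ± 0.21. Like the 18S locus Rn18s-rs5 (-0.74 in cells and 0.26 in EVs), these 5 had folds below 0 in cells and above 0 in EVs (0.18 to 0.76). Whether their reads came from these genes or from ribosomal RNA was not tested. Fgg, the fibrinogen gamma chain gene, measured 5338, 5117 and 6289 CPM against 2436, 3641 and 2633 (0.94 ± 0.36, edgeR adjusted p = 0.0532), without overlap, and passed under 10 alternatives. Without these 6, the other 2826 genes took 9.99% ± 0.595 against 13.4% ± 1.77 (SD, n = 3 each), with 190 higher and 655 lower. The lower calls among all 2832 genes numbered 470 in the fit of 12 libraries and the higher ones 108 with library totals and 120 without stimulated replicate 1.

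Among long genes with a mean of at least 20 CPM, the lines of joined names described next set aside, the highest fold was that of Smpx, known for a muscle protein, with 118, 124 and 78.3 CPM against 17.8, 22.4 and 20.7 (2.40 ± 0.25, edgeR adjusted p = 1.69e-07). Several large falls rested on single stimulated libraries. 1700104B16Rik stood at 684, 21.9 and 27.4 CPM in stimulated cells against 6.95, 6.25 and 15.9 (-4.67 ± 1.26), and at -1.37 without stimulated replicate 1 (edgeR adjusted p = 0.413). Slc44a3 stood at 23.5, 19.4 and 258 CPM against 10.4, 10.2 and 7.29 (-3.42 ± 0.72), and at -1.17 without stimulated replicate 3 (edgeR adjusted p = 0.107). Nwd1 stood at 116, 16.9 and 18.9 CPM against 4.63, 7.38 and 11.3 (-2.73 ± 0.84), and at -1.22 without stimulated replicate 1 (edgeR adjusted p = 0.319). Tbc1d22b and Tbc1d22bos, on opposite strands of one place, had log2 folds of -2.59 ± 0.36 and -2.92 ± 0.50, and kept the call at -1.89 and -1.88 without stimulated replicate 2, their highest library.

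For 5 gene names on 16 lines, the deposited lines joined values of the 2 separate tables. Flt3l line 2 paired 862, 772 and 729 CPM of DMSO cells with 13.9, 5.97 and 13.0 of stimulated cells, a log2 fold of 6.14, while Flt3l line 1 held the same DMSO values beside 814, 867 and 835 CPM in stimulated cells (-0.09 ± 0.16, edgeR adjusted p = 0.718). Pik3c2g line 2 gave -3.68 and Pik3c2g line 1 -0.22 (edgeR adjusted p = 0.45) in the same way. The folds of such second lines compare different entries of a gene. Without these lines 1274 features were called.

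The same comparison in EVs used other libraries, 3 of DMSO EVs and 3 of stimulated EVs, and called 1038 of 4408 features (23.5%), 601 higher and 437 lower. The test of the difference between cells and EVs called 818 features (18.6%), 246 with a higher and 572 with a lower fold in cells. Of the mitochondrial tRNAs 9 of 10 were higher in EVs as well (median 1.21), and the difference was called for 0 of 10 (edgeR). The 5_half_up fragments were higher in EVs for 62 of 102 loci (median 1.06), with a difference called for 10, each higher in cells; summed by anticodon, initiator methionine rose by 1.60 in EVs, a difference of 1.05 ± 0.31 (edgeR adjusted p = 0.0203). The U5 copies differed: Rnu5g had a fold of 0.76 in EVs (edgeR adjusted p = 0.0655), and the difference was called for 7 of 7 copies, each higher in cells. For miRNAs, EVs had 2 higher and 26 lower with a median of -0.20, and the difference was called for 28, 24 of them with the higher fold in cells.

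**Figure D5:**
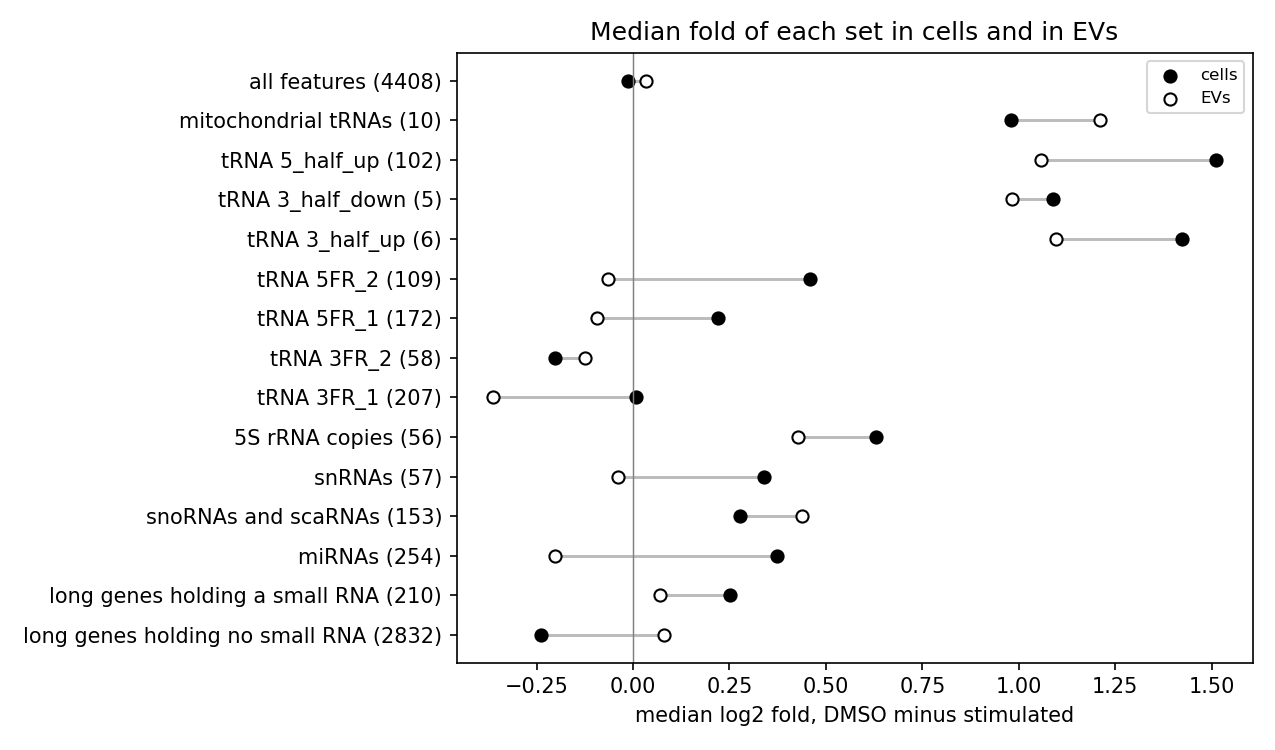
Median log2 fold of DMSO against stimulated libraries (x axis) in cells (filled points) and in EVs (open points) for each class or fragment kind (rows, with the number of features). The medians of mitochondrial tRNAs are 0.98 in cells and 1.21 in EVs, while those of miRNAs are 0.37 and -0.20, on opposite sides of 0.

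Among features with a mean of at least 20 CPM in the 6 cell libraries and no overlap between the cell groups, pieces of long genes held the largest differences between cells and EVs. Tshr, the thyrotropin receptor gene, was higher with DMSO in cells (202, 200 and 151 CPM against 101, 91.0 and 94.0; 0.95 ± 0.20) and lower in EVs (-2.48), a difference of 3.44 ± 0.32 (edgeR adjusted p = 1.1e-07). Tshz2, a zinc finger gene, showed 0.71 in cells and -2.65 in EVs. Zswim6 went the other way with -1.42 in cells and 2.57 in EVs, as did Sorcs2, a sortilin receptor gene, with -0.94 and 2.98. Over the 2832 long genes holding no listed small RNA, EVs had 455 higher and 334 lower, and the difference was called lower in cells for 527 and higher for 129. The count of 818 went to 536 without stimulated cells replicate 3 and to 1284 without DMSO EVs replicate 2, whose library stood apart from the other DMSO EVs with a TMM factor of 1.09 against 1.46 and 1.53.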

How the data were processed

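The deposited files of the authors hold whole-number read counts per annotated feature, 1 file per library, per the file headers. Bowtie and the builds GRCm38 and mm10 are named, per the submitters' processing notes; version, settings, trimming, treatment of reads with several alignments and counting tool are not given in the sources used here. Each file had 4441 lines, of which 33 repeated another in full and were dropped. The smallest count in any file was 4, and features below it are not analysed here.

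Tests used edgeR 4.0.16 (R 4.3.3): filterByExpr (minimum count 10; 0 of 4408 features removed), TMM factors, and 1 quasi-likelihood model (glmQLFit, glmQLFTest) without intercept over 8 groups and 24 libraries. Contrasts were DMSO minus stimulated in cells, in EVs, and the difference of both, with Benjamini-Hochberg adjustment over 4408 features and a call at an adjusted p under 0.05. Folds are log2 with standard errors (SE). Levels are CPM, counts per 1000000 of the TMM-scaled library size. Shares of counts were compared by two-sided exact permutation tests, adjusted over the sets. The scripts were tested on simulated data. Total counts ran from 1551155 to 2742635 over the 6 libraries, and replicates of a group differed by more than sampling noise (chi-square per degree of freedom 7.73 to 17.0).

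Named features passed the threshold, had groups without overlap and a mean CPM of at least 20: the 6 highest and 6 lowest miRNAs (5 were lower), the 4 highest and 4 lowest snoRNAs and summed tRNA fragments, and the 6 highest and 6 lowest other features, with the members of short lists, the most abundant features and the 4 highest and lowest differences between cells and EVs. Other features named with values, such as ribosomal RNA pieces and abundant long genes, were picked after their values were seen. Members and lists were chosen with earlier results of these data known. Alternatives were RLE size factors, library totals, DESeq2 1.42.0, a mean count of 50, a replicate block, summed tRNA loci, other sets of libraries and leaving out single libraries. GENCODE M21 gave coordinates and longer sequences, RefSeq the mature miRNAs. No sequence of a nuclear tRNA fragment is printed. Sequences of U5 snRNAs are not reported here.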

Additional observations from a re-analysis of the deposited data

Results flagged for a closer look

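The log2 fold of DMSO against stimulated differed between cells and EVs for the features below, each by the edgeR test of that difference with Benjamini-Hochberg adjustment. That test called 818 of 4408 features (18.6%), and 702 of 3588 in the fit used for summed tRNA fragments. Each value is the fold in cells minus the fold in EVs.

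Among spliceosomal U5 copies the differences were 2.13 for Rnu5g, 2.06 for Gm25313, 2.45 for Gm22265, 1.78 for Gm23287, 1.96 for Gm23143, 1.79 for Gm25099 and 2.14 for Gm24871. The 5_half_up fragments differed by 1.05 for initiator methionine CAT and 1.23 for glycine TCC, and the leucine CAA precursor fragments by 2.37. Other small RNAs with a higher fold in cells were Rny1 (0.82) and the snoRNAs Gm22357 (1.95) and Snord72 (1.53). The mitochondrial small ribosomal RNA mt-Rnr1 differed by -0.72, with the higher fold in EVs, and the 18S locus Rn18s-rs5 by -0.99. The snoRNAs Gm22009 (-2.49), Snora33 (-1.93) and Gm26448 (-1.85) had folds below 0 in cells and above 0 in EVs.

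Among miRNAs, the difference was 1.16 for Mir449c, 1.06 for Mir18b, 0.98 for Mir101b and 0.84 for Mir146. It was -1.62 for Mir2137, -2.11 for Mir6240, -1.07 for Mir5121 and -1.24 for Mir6236.

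Among pieces of long genes the difference was 3.44 for Tshr, 3.35 for Tshz2 and 1.99 for Smpx. It was -3.99 for Zswim6, -3.92 for Sorcs2, -3.90 for Slc44a3, -2.87 for Tbc1d22bos and -2.56 for Tbc1d22b. Without stimulated cells replicate 3 the value of Slc44a3 was -1.64 (edgeR adjusted p = 0.0972). The abundant Gm42418, AY036118, Cdk8, Cmss1 and Filip1l differed by -1.15, -1.26, -1.82, -1.75 and -1.75. The joined entries Flt3l line 2 and Pik3c2g line 2 gave 2.51 and -3.89, and these compare different entries of a gene.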

How the results depend on the processing

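The count of 1279 called features in cells stayed within 1.5 times under every alternative: 1357 with RLE size factors (726 higher, 631 lower), 1229 with library totals (376 and 853), 1331 with DESeq2 (718 and 613), 895 of 2334 with a mean count of 50, 1023 of 3588 with tRNA loci summed, and 941 to 1179 without single libraries. The fit of only the 6 libraries compared called 1612 of 4266 features (717 higher, 895 lower). That of the 12 cell libraries called 1607 of 4370 (738 and 869). Alternatives added after seeing the data gave 1322 with the 12 DMSO and stimulated libraries (818 and 504), the fit meant by 12 libraries below. Others gave 1449 with 6 libraries and library totals, 1621 with 6 libraries and the replicate block, and 1274 without names on several lines. With the replicate block 1246 were called in cells and 764 in the difference between cells and EVs. Same-numbered DMSO and stimulated cell libraries deviated with correlations of -0.01, 0.07 and 0.10, and the same-numbered libraries in the cell and EV groups of the difference with -0.20 to 0.36. They exceeded 0.1 at every number only between stimulated cells and DMSO EVs (0.23, 0.36 and 0.21), so the numbers were not taken to pair the samples. The difference of 818 ran from 536 to 1284 without single libraries and was 602 with 12 libraries (307 higher and 295 lower). Of the class shares, 0 passed adjustment under any setting, as 3 against 3 libraries allow. The direction changed, with no call, for Vmp1 (-0.044 with library totals in the fits of 24 and of 6 libraries; -0.099 to 0.36 without single libraries), for Mir21a (-0.044 in the same fits; -0.099 to 0.36), for Mir155 (-0.016 in the same fits) and for Mir150 (0.038 with 12 libraries; -0.25 to 0.0058 without single libraries); the cause was not tested. Features near the smallest deposited count of 4 have the least precise folds.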
